A study of Homo sapiens with 21 samples.

Results

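The late response of OCI-AML3 cells to tunicamycin was followed by RNA-sequencing. OCI-AML3 is a human acute myeloid leukaemia cell line grown in RPMI medium. 3 libraries of cells kept for 24 h with tunicamycin at 1 μg/mL were set against 3 libraries of cells kept for 24 h with DMSO, the solvent. All genes with at least 1 CPM, counts scaled to library size, in at least 3 of these 6 libraries were compared, 13823 of the 60671 genes counted. The other 15 libraries of the series, OCI-AML3 cells untreated at 0 h, OCI-AML3 cells upon DMSO or tunicamycin for 4 h, and HEK293T human embryonic kidney cells upon DMSO or tunicamycin for 24 h, entered the same model, which has 7 groups of 3. The labels do not say whether the replicates of a group were separate cultures, so p-values measure the spread between these libraries.

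Tunicamycin stops N-linked glycosylation by inhibiting the enzyme encoded by DPAGT1, and glycoproteins that cannot fold pile up in the endoplasmic reticulum (ER). The ER membrane sensors PERK, IRE1 and ATF6 then start the unfolded protein response (UPR): PERK slows translation and brings on the transcription factors ATF4 and CHOP, IRE1 splices the mRNA of XBP1, and ATF6 is cut to release an active factor. XBP1 and ATF6 are known for inducing ER chaperones and the machinery that disposes of misfolded proteins, ATF4 and CHOP for inducing amino acid supply and, upon lasting stress, cell death genes.

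The 6 libraries held 14582963 to 18341518 counts, and 3 counts correspond to 0.167 to 0.227 CPM after scaling of the library sizes. Libraries of a group had Pearson correlations of 0.986 to 0.991 in log2 CPM across genes, which are not independent replicates, against 0.948 to 0.968 between the groups. The library of tunicamycin replicate 3 stood apart: it had counts in 21292 genes against 19921 to 20435 in the other 5, and 2.45% of its counts fell on mitochondrial genes against 1.65 to 1.97%. With 18341518 counts it was also the deepest of the 6, and the part of depth in the number of genes was not tested. Calls of list members or named genes that are lost without this library are named below. All 9 myeloid markers (SPI1, CD33, MPO, CSF3R, LYZ, PRTN3, TYROBP, CEBPA and CD68) averaged at least 1 CPM in both groups, with a summed level of 1825 to 1914 CPM upon DMSO and 1526 to 1823 CPM upon tunicamycin. MPO, with 14 to 20 counts a library, did so narrowly and did not pass the filter of the test. Of 8 erythroid markers 0 did, of 8 T and NK cell markers 1 did (NKG7), and of 6 stromal markers 1 did (COL1A2, 20.8, 23.7 and 20.3 CPM upon DMSO and 7.37, 5.23 and 6.39 CPM upon tunicamycin). In bulk RNA, fewer cells of a kind and less RNA per cell cannot be told apart.

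Upon 24 h of tunicamycin 663 genes rose and 265 fell. A gene was called where p, adjusted over all genes by Benjamini-Hochberg, did not exceed 0.05 and the change was more than 2-fold, that is beyond 1 or -1 in log2. This is 4.8% and 1.92% of the genes tested (6.71% in either direction), and these shares are the background for every count of list members called. The lists were chosen with earlier results of these data known, so a count above these shares is not an independent test. Counts of members at an unadjusted p have no share of all genes beside them here. Past adjusted p alone were 3755 genes higher (27.2%) and 3470 lower (25.1%), so that 52.3% of genes moved measurably, most of them by less than the fold threshold. In 28.5% of genes all tunicamycin libraries lay above all DMSO libraries and in 25.2% below. The median log2 fold change over all genes was 0.04. A change of more than 4-fold was called for 119 genes higher and 20 lower. The filter bears on these counts, since 134 genes reached 1 CPM only in the 3 tunicamycin libraries, of which 112 were called higher, and 32 only in the 3 DMSO libraries, of which 25 were called lower. The genes named here that passed through 1 group alone, and so had to differ, are NUPR1, GDF15, GOT1, GEM, IL32, ABCG1 and ENSG00000279117 among those that rose and ID3 and IFI27 among those that fell. All 6 libraries reached 1 CPM for 12795 genes, exactly 3 for 337, just inside the rule, and exactly 2 for 325, just outside. Without tunicamycin replicate 3, 546 genes were called higher and 265 lower.

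**Figure D1:**
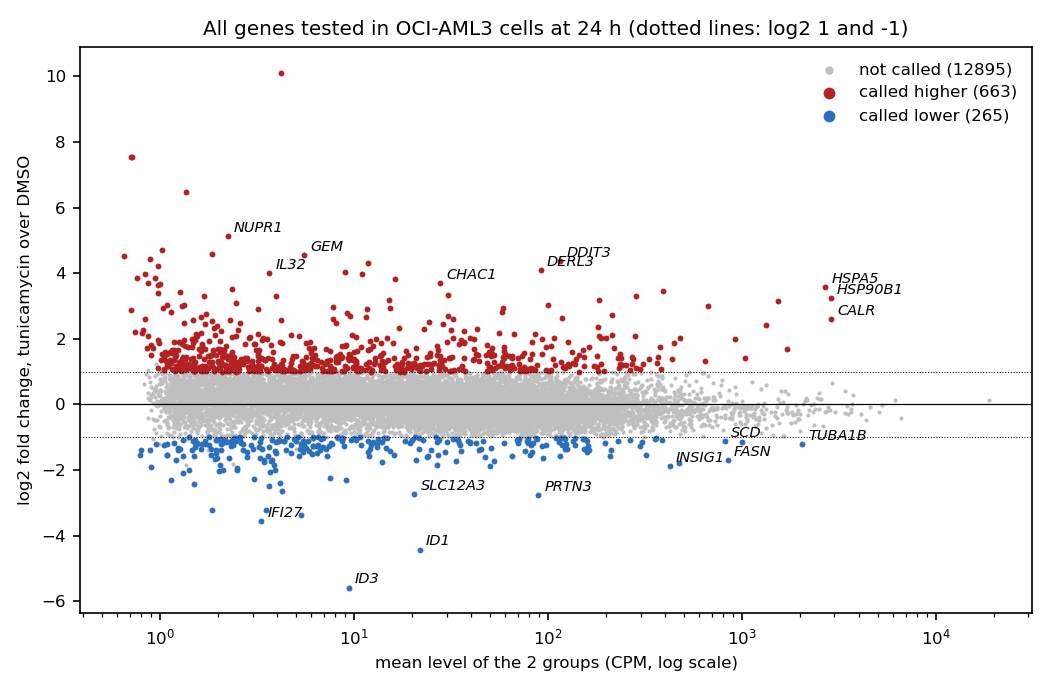
Each point is a gene tested, by its mean level over the 2 groups at 24 h (x axis, CPM, log scale) and its fitted log2 fold change, tunicamycin over DMSO (y axis). Red marks the 663 genes called higher and blue the 265 called lower. Fitted values of genes with almost no counts upon DMSO, such as NUPR1, are not bounds. The abundant end of the plot holds HSPA5, HSP90B1 and CALR above and TUBA1B, FASN and SCD below.

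HSPA5, which encodes the main ER chaperone BiP (ENSG00000044574, chr9:125234853-125241382, GRCh38), stood at 428, 409.6 and 416 CPM upon DMSO and 5035, 5024 and 4812 CPM upon tunicamycin. The groups were far apart and each was tight, with a log2 fold change of 3.57 ± 0.06 SE and an adjusted p of 1.8e-21 by edgeR's quasi-likelihood test. The Hsp90 of the ER, HSP90B1, stood at 552, 558 and 549 CPM upon DMSO and 5134, 5002 and 5421 CPM upon tunicamycin (log2 fold change 3.23 ± 0.07 SE, adjusted p 2.4e-20). The lectin chaperone calreticulin, CALR, stood at 813, 839 and 771 CPM upon DMSO and 5315, 4995 and 4471 CPM upon tunicamycin (log2 fold change 2.61 ± 0.07 SE, adjusted p 5.5e-18). Together with the protein disulfide isomerases PDIA4 and PDIA3 and the membrane lectin CANX, these were the 6 genes that gained the most CPM. Of 26 ER chaperones and cochaperones 14 rose and 0 fell, where edgeR, limma voom and DESeq2 gave the same counts and 2 members were lower at an unadjusted p under 0.05. The list's median log2 fold change was 1.37. Besides the genes above it included the secreted factor MANF (3.46), CRELD2 (3.31) and CRELD1 (3.03), the BiP cochaperones SDF2L1 (3.19), DNAJB11 (2.73), DNAJB9 (2.71) and DNAJC3 (2.65), and the nucleotide exchange factor HYOU1 (3.01). The smallest rises called in the list were those of the prolyl isomerases PPIB (1.43) and FKBP2 (1.32).

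**Figure D2:**
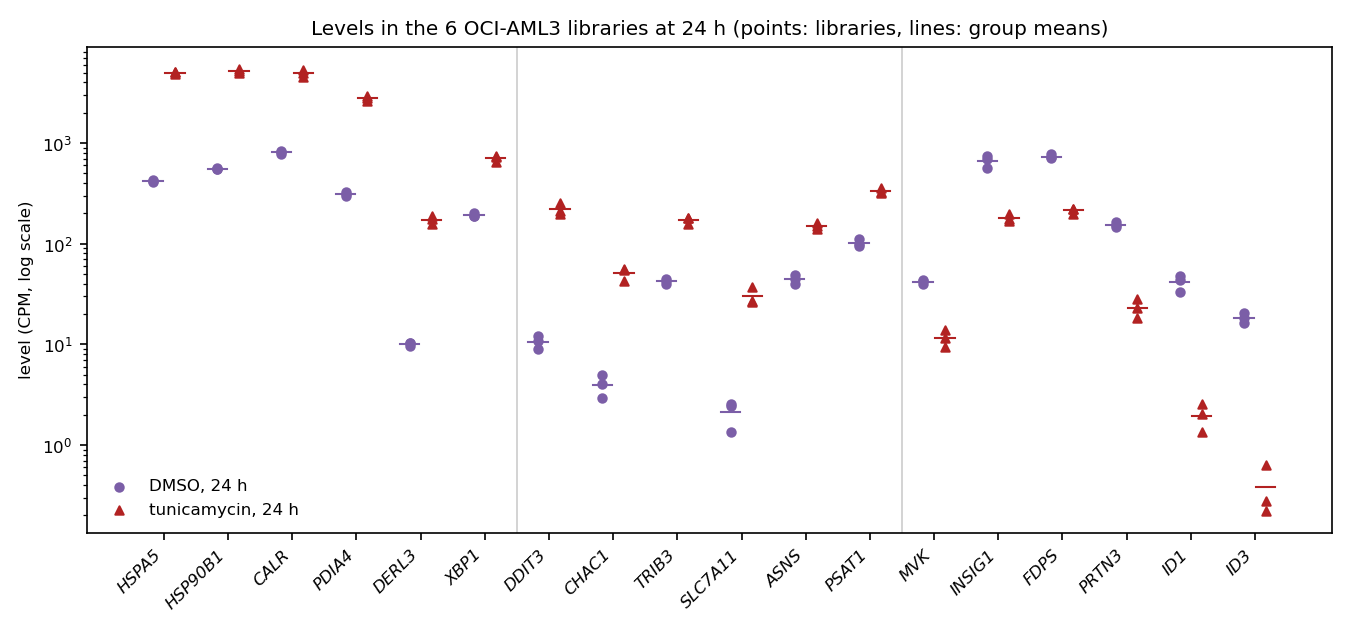
Level of 18 genes in each OCI-AML3 library at 24 h (y axis, CPM, log scale), with DMSO as circles, tunicamycin as triangles and a line at each group's mean. The left block holds ER folding and UPR genes, the middle block ATF4 and CHOP targets and amino acid genes, the right block genes that fell, and no gene shown has overlapping groups.

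The promoters of several of these chaperones carry the ER stress response element (ERSE), known as a binding site of ATF6 with the factor NF-Y, spelled CCAAT and CCACG 9 bases apart. RefSeq promoters (GRCh38.p14, 250 bases before to 50 after the gene's start) were matched to 10200 of the 13823 genes, and the motif was searched on both strands. Only 14 matched genes held it, 0.137%, against 0.0806% of all 27305 RefSeq promoters. The windows of the holders that rose follow, since they include the genes with the largest gain in CPM. They are read along the strand of the gene, with the motif letters in capitals. Where the element lies on the opposite strand it reads CGTGG, 9 bases, ATTGG.
HSPA5, chr9:125241386-125241414, minus strand: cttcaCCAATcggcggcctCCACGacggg
HSP90B1, chr12:103930211-103930239, plus strand: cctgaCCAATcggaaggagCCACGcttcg
HSP90B1, chr12:103930316-103930344, plus strand: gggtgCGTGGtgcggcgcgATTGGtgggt
CALR, chr19:12938379-12938407, plus strand: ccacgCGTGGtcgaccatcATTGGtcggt
CANX, chr5:179698773-179698801, plus strand: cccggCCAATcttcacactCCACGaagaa
XBP1, chr22:28800598-28800626, minus strand: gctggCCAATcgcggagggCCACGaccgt
FICD, chr12:108515118-108515146, plus strand: aacaaCCAATgggagtggcCCACGgcgcg
ERO1B, chr1:236282178-236282206, minus strand: gcccgCGTGGtcccgcctcATTGGccgcc
CRELD2, chr22:49918549-49918577, plus strand: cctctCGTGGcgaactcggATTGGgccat
ALG12, chr22:49918549-49918577, minus strand: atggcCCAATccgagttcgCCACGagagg
The HSPA5 element begins at -66 and the HSP90B1 elements at -194 and -89 from the RefSeq start. CRELD2 and ALG12 lie head to head and share a single element, read from either side.

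Of the 14 genes with an ERSE, 9 were called higher and 0 lower, against 4.19% higher and 1.83% lower among all genes with a matched promoter. Their median log2 fold change was 1.78, from 0.31 (ZNF17) to 3.57 (HSPA5), against 0.02 for all genes with a promoter. Besides the chaperones they were FICD (2.78), which AMPylates BiP, the ER oxidase ERO1B (2.44), the factor XBP1 (1.88) and the mannosyltransferase ALG12 (1.12). The 5 holders without a call were TRIM5 (0.87), SERP1 (0.64), TMEM120A (0.56), EIF2A (0.42) and ZNF17, all above the median of all genes. On the coding strand alone the element was found in 8 genes, of which 6 rose. A match is a string of letters in a window and not a measured binding site. Since only 64.4% of the genes called higher have a matched promoter, no share of promoters among called genes is given.

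The related ERSE-II, ATTGG and CCACG 1 base apart, was held by 9 genes, of which 4 rose: the cochaperone SDF2L1, HYOU1 with 2 copies, the ER degradation scaffold HERPUD1 and the calcium-binding NUCB1. Their windows are shown because these genes lack an ERSE in the same window.
SDF2L1, chr22:21642109-21642129, plus strand: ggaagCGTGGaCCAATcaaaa
HYOU1, chr11:119057375-119057395, minus strand: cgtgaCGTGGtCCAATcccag
HYOU1, chr11:119057269-119057289, minus strand: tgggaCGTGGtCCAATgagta
HERPUD1, chr16:56932020-56932040, plus strand: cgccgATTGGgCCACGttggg
NUCB1, chr19:48900238-48900258, plus strand: gccagCGTGGaCCAATcagac
The other 5 holders had log2 fold changes from -0.93 (GYS1) to 0.89 (RAD9A). On the coding strand alone 1 of 2 holders rose, and the share of all RefSeq promoters with the motif was 0.0549%. The XBP1 site TGACGTGG was held by 92 genes, with a median of 0.16, and by 0.795% of all RefSeq promoters. Of these genes 7 rose and 0 fell (7.61% higher, against 4.19% of all genes with a matched promoter). Of 39 promoters of ER to Golgi transport genes 9 held it (23.1%, against 0.902% of genes tested), while 2 of the 45 genes of that list were called higher. On the coding strand alone 57 genes held the site, of which 6 rose, as did 4 of the 39 promoters (10.3%) hold it. ERSE, ERSE-II and this site share the letters CCACG or its complement and can overlap.

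Genes of disulfide formation and of ER clearance rose in smaller numbers. Of 23 disulfide isomerases and oxidases 5 were called higher and 20 were higher past adjusted p, with a median of 0.43. PDIA4 (3.15), ERO1B, PDIA3 (2.41), PDIA6 (1.98) and ERP44 (1.305), which retains oxidases in the early secretory pathway, were these 5. The most abundant isomerase, P4HB, stood at 2298, 2315 and 2212 CPM upon DMSO and 3791, 3590 and 3305 CPM upon tunicamycin, a log2 fold change of 0.65 ± 0.07 SE that does not reach the fold threshold. Of 39 genes of ER-associated degradation, which exports misfolded proteins to the proteasome, 6 were called higher and 23 were higher past adjusted p, with a median of 0.37. DERL3, a component of the retrotranslocation channel, stood at 9.57, 10.4 and 10.4 CPM upon DMSO and 187, 177 and 156 CPM upon tunicamycin, the largest rise of the list at 4.10 ± 0.12 SE. The ubiquitin ligase SYVN1 (2.14) and its partner SEL1L (2.01), HERPUD1 (2.04), DERL2 (1.53) and SELENOS (1.03) were the others. SELENOS was just past the fold threshold and under it in 5 alternatives (0.92 to 0.988), among them without DMSO replicate 1 or 2 or tunicamycin replicate 2.

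Of the UPR sensors and ER-bound factors, 10 genes, 2 rose. XBP1 stood at 188, 186 and 199.6 CPM upon DMSO and 730.4, 735 and 649 CPM upon tunicamycin (log2 fold change 1.88 ± 0.08 SE) and EIF2AK3, which encodes PERK, at 13.7, 14.7 and 13.2 CPM upon DMSO and 38.1, 37 and 43.6 CPM upon tunicamycin (1.51 ± 0.09 SE). ERN1, which encodes IRE1, had a log2 fold change of 0.80 ± 0.11 SE with an adjusted p of 3.2e-06, short of the fold threshold. ATF6 stood at 77, 76.1 and 79.1 CPM upon DMSO and 75.8, 79.7 and 81.5 CPM upon tunicamycin, overlapping groups with an adjusted p of 0.71. The gene counts do not tell spliced from unspliced XBP1.

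Of 25 ATF4 and CHOP factors and targets 11 rose and 24 were higher past adjusted p, the largest share of any list, with a median of 0.87. DDIT3, which encodes CHOP (chr12:57516588-57521737), stood at 9.08, 10.7 and 12.2 CPM upon DMSO and 211, 254 and 198 CPM upon tunicamycin, a log2 fold change of 4.38 ± 0.11 SE with an adjusted p of 1.8e-18. CHAC1, which breaks down glutathione, stood at 2.96, 4.04 and 4.92 CPM upon DMSO and 56.1, 55.2 and 43 CPM upon tunicamycin (3.69 ± 0.16 SE). NUPR1, a stress-induced chromatin factor, held at most 3 counts in each DMSO library and averaged 4.35 CPM upon tunicamycin, at least 20.6-fold higher against a floor of 3 counts per library. The list's median is the same with NUPR1 at this bound. The pseudokinase TRIB3 (2.03), the hormones GDF15 (3.29), ADM2 (2.51) and STC2 (2.59), the factor ATF5 (2.04), the stress-induced SESN2 (1.42), the vascular growth factor VEGFA (1.39) and the tRNA exporter XPOT (1.04) made up the rest. XPOT was at 0.969 without DMSO replicate 2 and 0.899 without tunicamycin replicate 3, in neither case called. ATF4 itself stood at 392, 427 and 454 CPM upon DMSO and 826, 902 and 722 CPM upon tunicamycin, separate groups with a log2 fold change of 0.94 ± 0.08 SE that falls short of a call. PPP1R15A, which restarts translation by reversing the action of PERK, was at 0.37 ± 0.08 SE and ATF3 at 0.60 ± 0.19 SE.

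Genes of amino acid supply rose too. Of 22 enzymes of amino acid and one-carbon metabolism 8 rose, with a median of 0.65. Asparagine synthetase, ASNS, stood at 40.2, 44.7 and 49.3 CPM upon DMSO and 150, 161 and 141 CPM upon tunicamycin (1.75 ± 0.08 SE), and the serine pathway enzymes PSAT1 (1.71), PHGDH (1.67) and PSPH (1.06) rose with it, as did ASS1 (2.09), ALDH1L2 (1.996), BCAT1 (1.78) and GOT1 (1.89). GOT1 passed the filter only through the tunicamycin libraries, and PSPH was at 0.995, 0.941 and 0.928 without DMSO replicate 1, DMSO replicate 3 and tunicamycin replicate 2 and then not called. A further 7 members were lower past adjusted p without reaching a call. Of 18 amino acid transporters 6 rose, with a median of 0.92. The cystine transporter SLC7A11 stood at 2.46, 2.54 and 1.36 CPM upon DMSO and 27, 26.5 and 37.5 CPM upon tunicamycin (3.82 ± 0.21 SE), the glycine transporter SLC6A9 followed (2.94), and SLC38A1, SLC38A2, SLC3A2 and SLC1A4 lay between 1.09 and 1.70, with SLC1A4 at 0.988 and not called without tunicamycin replicate 1.

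The cytosolic tRNA synthetases, which charge tRNAs for translation, were split: of 20, 11 were higher and 7 lower past adjusted p, with a median of 0.38. WARS1 stood at 177, 178 and 165 CPM upon DMSO and 602, 590.3 and 543 CPM upon tunicamycin (1.74 ± 0.06 SE) and AARS1 at 362, 388 and 353 CPM upon DMSO and 991, 899 and 862 CPM upon tunicamycin (1.32 ± 0.06 SE). GARS1 passed the fold threshold narrowly at 1.01 and lay between 0.95 and 0.99 in 9 of the other fits. Of the 17 mitochondrial synthetases 12 were lower past adjusted p and 0 higher, with a median of -0.30 and no call by edgeR, limma voom or DESeq2. LARS2 stood at 60.9, 59.8 and 52.9 CPM upon DMSO and 40.6, 37 and 36.9 CPM upon tunicamycin, separate groups with a log2 fold change of -0.60 ± 0.08 SE.

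The element TGATGCAA, a composite of C/EBP and ATF half-sites to which ATF4 is known to bind (CARE), was found on either strand in the promoters of 51 genes tested, 0.5% against 0.923% of all RefSeq promoters. Of these 13 rose and 1 fell (25.5% and 1.96%), against 4.19% and 1.83% of all genes with a matched promoter. GOT1 is among those that rose, and passed the filter only through the tunicamycin libraries, so that it had to differ. Whether this holds for holders outside the lists is not given here. Of the 16 cytosolic synthetases with a promoter, 6 held it. Windows of the holders that rose and belong to a list are shown, with TTGCATCA where the motif lies on the opposite strand.
CHAC1, chr15:40953257-40953274, plus strand: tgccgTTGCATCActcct
AARS1, chr16:70289681-70289698, minus strand: cgcagTTGCATCAgccaa
HERPUD1, chr16:56931961-56931978, plus strand: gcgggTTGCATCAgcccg
GOT1, chr10:99430810-99430827, minus strand: attggTTGCATCAttctc
BCAT1, chr12:24949137-24949154, minus strand: cctgcTGATGCAAtccgc
BCL2A1, chr15:79971247-79971264, minus strand: taaagTGATGCAAacaga
The median log2 fold change of the 51 holders was 0.28, so that most of them did not rise by 2-fold. Other synthetase holders were CARS1 (0.84), TARS1 (0.60), NARS1 (0.54), IARS1 (0.54) and MARS1 (0.46). On the coding strand alone 6 of 23 holders rose.

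Part of the genes of N-glycan assembly, the process tunicamycin blocks at its first step, rose. Of 48 members 7 rose, a share above the 4.8% of all genes. Past adjusted p 25 were higher and 3 lower, with a median of 0.33. DPAGT1 stood at 33.2, 34.3 and 32.1 CPM upon DMSO and 45.1, 43.2 and 41.5 CPM upon tunicamycin, separate groups with a log2 fold change of 0.38 ± 0.07 SE and an adjusted p of 0.00011, below the fold threshold. UGGT1, which re-tags misfolded glycoproteins, stood at 125, 131 and 106 CPM upon DMSO and 359.6, 337 and 354 CPM upon tunicamycin (1.54 ± 0.07 SE). NUS1 (1.38), which makes the dolichol carrier, the oligosaccharyltransferase subunits STT3B (1.37), MAGT1 (1.24) and OSTC (1.18), and the sugar transferases ALG5 (1.27) and ALG12 were the other rises. STT3A, the catalytic subunit that works during translocation, was at 0.64 and was not called.

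Genes of entry into the ER were called more often than those of exit from it. Of 24 translocation genes 4 rose, a share above the 4.8% of all genes, with a median of 0.28. They were TRAM1 (2.07) and the signal peptidase subunits SEC11C (1.89), SPCS3 (1.48) and SPCS2 (1.15). Of 45 ER to Golgi transport genes 2 rose, the cargo receptors TMED7 (1.39) and TMED5 (1.12), a share near that of all genes. Past adjusted p 24 were higher, and TMED5 was at 0.96 without tunicamycin replicate 3. With library sizes not scaled by TMM 4 members were called higher. Of 44 autophagy genes 4 rose, led by the ER-phagy receptors CCPG1, which stood at 58.4, 68.7 and 49.9 CPM upon DMSO and 292, 288 and 333 CPM upon tunicamycin (2.37 ± 0.11 SE), and RETREG1 (1.65), followed by WIPI1 (1.24) and GABARAPL1 (1.18).

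Of 24 genes of the BCL2 family and death receptors 3 rose, with a median of 0.15. The pro-apoptotic BMF stood at 29.2, 26.7 and 24.9 CPM upon DMSO and 92.5, 89.6 and 91.3 CPM upon tunicamycin (1.76 ± 0.09 SE) and PMAIP1, which encodes NOXA, at 13.8, 13.2 and 12 CPM upon DMSO and 40.7, 37.5 and 45.3 CPM upon tunicamycin (1.67 ± 0.09 SE). The third was BCL2A1 (1.32), which is anti-apoptotic. The death receptor gene TNFRSF10B was at 0.52, higher past adjusted p and short of a call, and MCL1 overlapped between the groups (adjusted p 0.35).

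**Figure D3:**
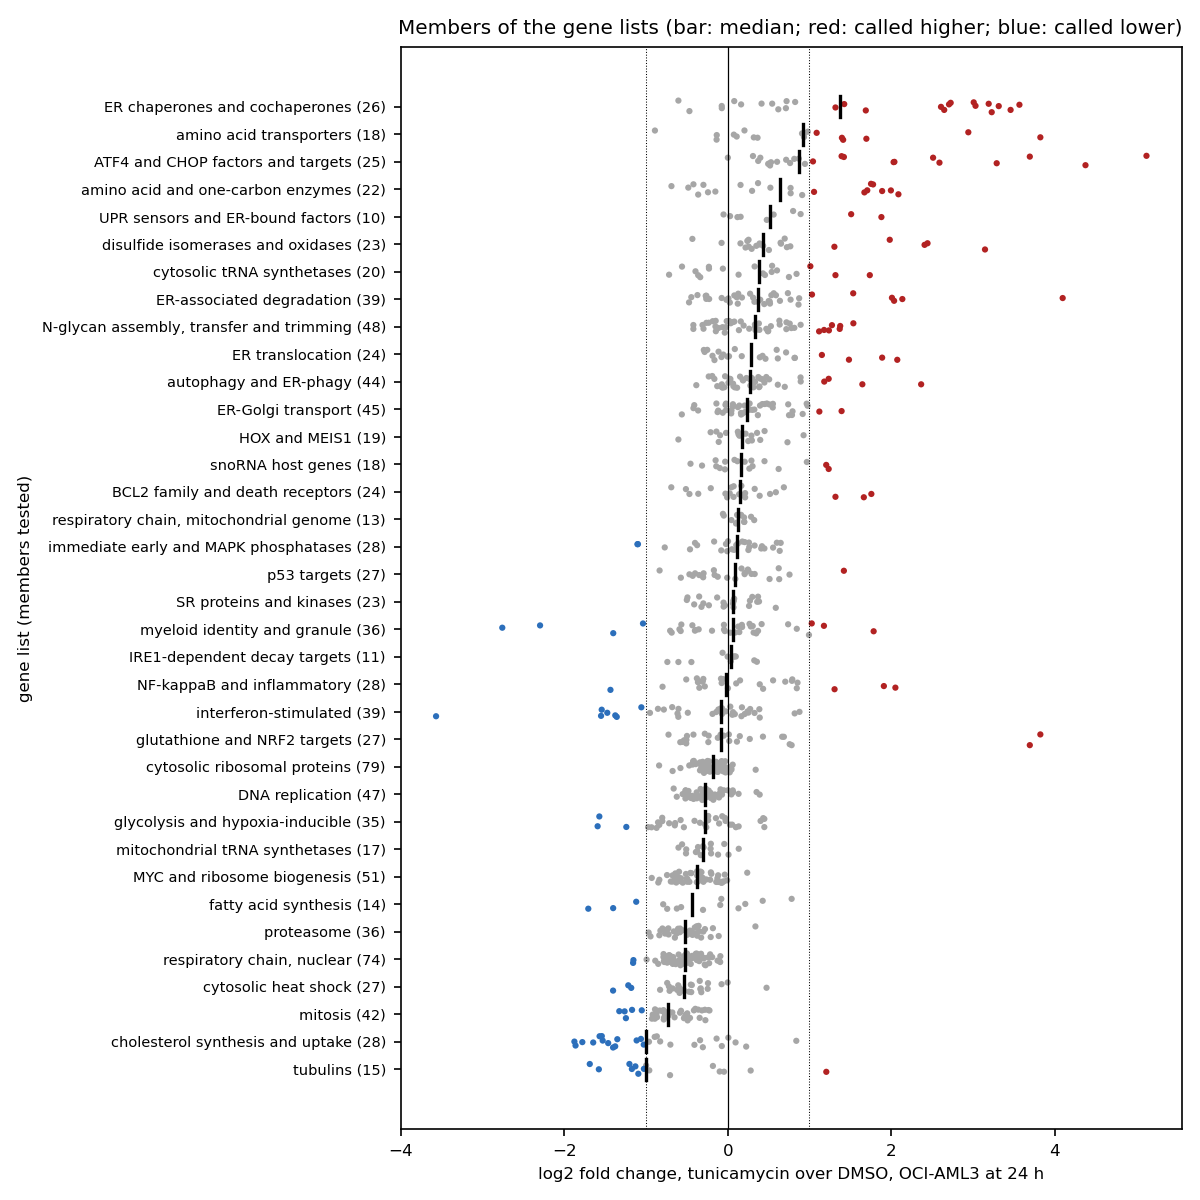
Log2 fold change at 24 h, tunicamycin over DMSO (x axis), of each member tested of the 36 gene lists (rows, number tested in brackets), ordered by their median (bar). Red points were called higher and blue points lower. ER chaperones lie at the top with a median of 1.37, and cholesterol genes and tubulins at the bottom with -0.99 and -0.998.

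Genes of cholesterol synthesis and uptake were mostly lower. Cells make sterols from acetyl-CoA through mevalonate, and SREBP2 is the factor known for holding these enzymes at matched levels. Of 28 members 14 fell and 22 were lower past adjusted p, while 0 rose by any of the 3 tools and 2 were higher at an unadjusted p under 0.05. The list's median was -0.99. MVK, mevalonate kinase (chr12:109573255-109598125), stood at 43.1, 39.4 and 43.4 CPM upon DMSO and 13.8, 11.7 and 9.39 CPM upon tunicamycin (-1.86 ± 0.11 SE, adjusted p 2.9e-12). FDPS, which makes farnesyl diphosphate, stood at 707, 721 and 773 CPM upon DMSO and 223, 223 and 195 CPM upon tunicamycin (-1.78 ± 0.08 SE). INSIG1, which retains the SREBP complex in the ER, stood at 739, 563 and 696 CPM upon DMSO and 177, 169 and 198 CPM upon tunicamycin (-1.88 ± 0.09 SE, adjusted p 4.1e-14). In all of these each DMSO library was above each tunicamycin library, and INSIG1, FDPS, FASN and SCD were among the 6 genes that lost the most CPM.

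Other enzymes that fell came from early and late steps of the pathway: ACAT2 (-1.65), HMGCS1 (-1.38), MVD (-1.06), IDI1 (-1.03), FDFT1 (-1.54), LSS (-1.35), MSMO1 (-1.57), EBP (-1.11) and DHCR7 (-1.53). SQLE was at -0.87 and fell short of a call. The genes of the factors moved little, SREBF2 at -0.34 and SREBF1 at -0.30. STARD4, a sterol carrier, went the other way at 0.84, higher past adjusted p. Without tunicamycin replicate 3, 13 members were called lower, as MVD was at -0.999. The sterol regulatory element, spelled TCAC and CCAC 1 base apart, was searched on both strands. It was held by 112 genes tested (1.1%, against 1.15% of all RefSeq promoters), of which 7 rose and 5 fell (6.25% and 4.46%). Among all genes with a matched promoter 4.19% rose and 1.83% fell. On the coding strand alone 52 genes held it, of which 1 rose and 3 fell.

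Of 14 fatty acid synthesis genes 3 fell, FASN at 1353, 1457 and 1069 CPM upon DMSO and 469, 354 and 366 CPM upon tunicamycin (-1.71 ± 0.13 SE), ACSS2 (-1.40) and the desaturase SCD at 1206, 1084 and 1065 CPM upon DMSO and 546, 474 and 526 CPM upon tunicamycin (-1.12 ± 0.07 SE), with a median of -0.44. The desaturases FADS2 (-0.74) and FADS1 (-0.57) were lower past adjusted p.

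The levels at the other times place these falls. MVK averaged 16.6 ± 0.615 CPM (SD, n = 3) in untreated cells, 19.8 ± 2.55 CPM upon DMSO at 4 h and 42 ± 2.24 CPM upon DMSO at 24 h, against 11.6 ± 2.21 CPM upon tunicamycin at 24 h. DHCR7 averaged 38 ± 0.846, 38.2 ± 3.52, 119 ± 7.98 and 41.4 ± 4.55 CPM in the same order. INSIG1 averaged 164 ± 5.64, 151 ± 14.2, 666 ± 92 and 181 ± 15.2 CPM. The DMSO cells at 24 h had the highest mean of the 4 for each gene. FDPS upon tunicamycin at 24 h, at 214 ± 16 CPM, was below the 298 ± 13.9 CPM of untreated cells as well as the 734 ± 34.8 CPM of DMSO at 24 h. A group of untreated cells at 24 h was not analysed here, so time in culture and 24 h of DMSO cannot be told apart.

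**Figure D4:**
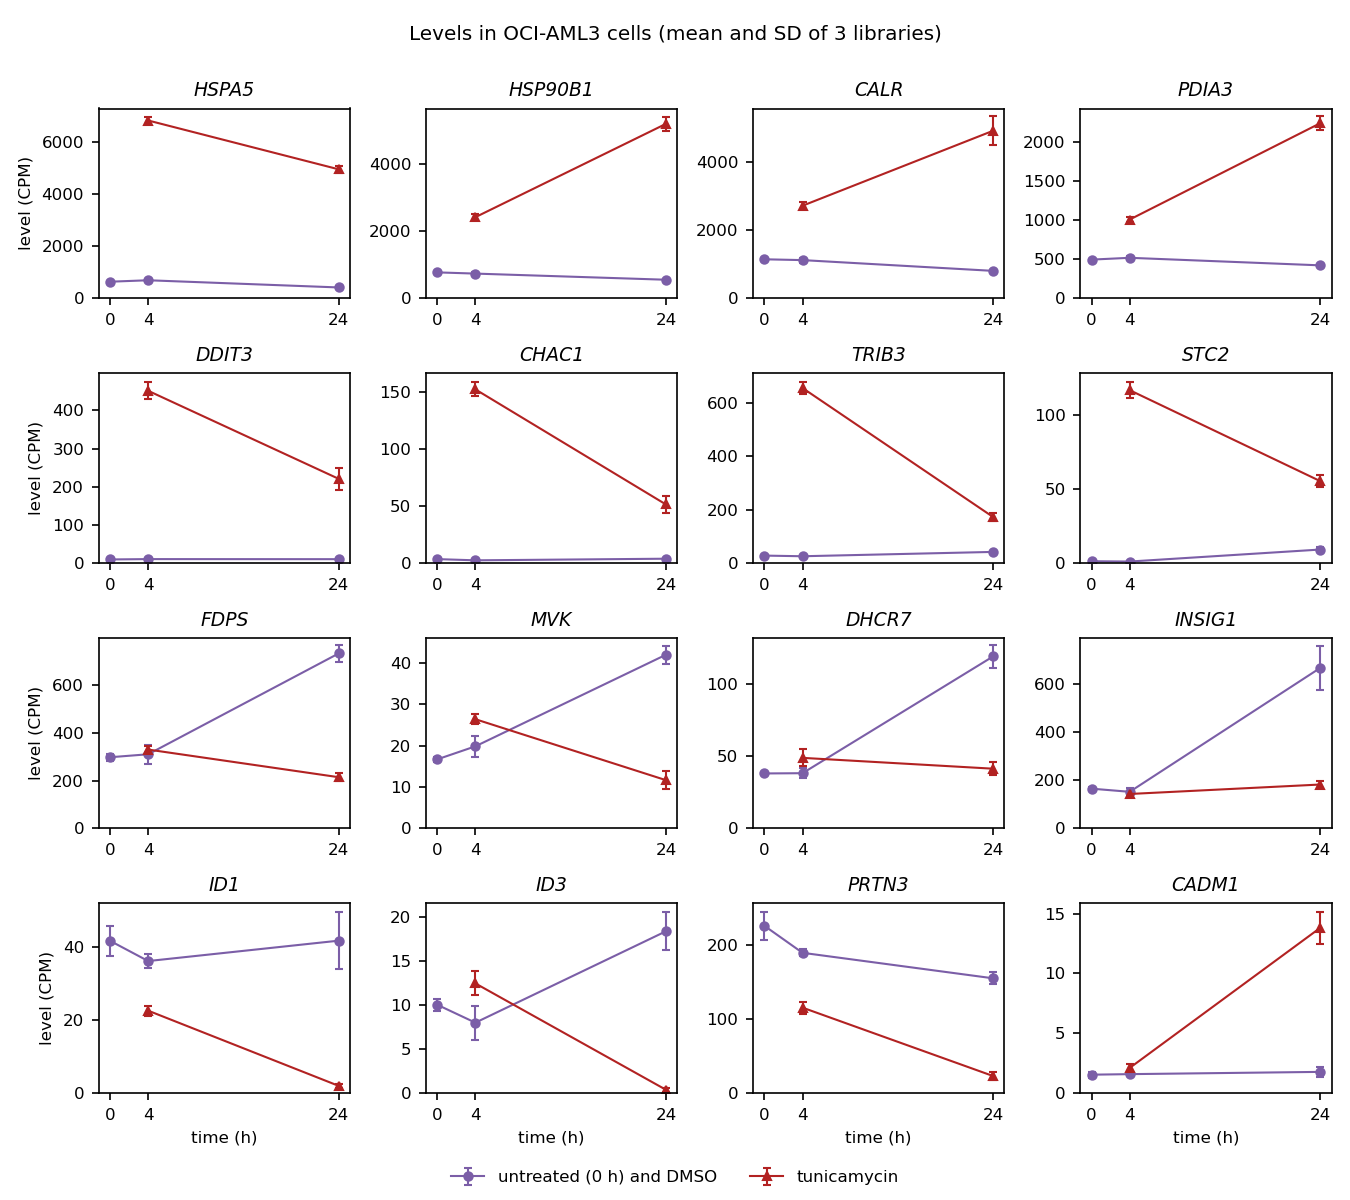
Level of 16 genes in OCI-AML3 cells (y axis, CPM, linear from 0) against time (x axis, h), as mean and SD of 3 libraries. Purple circles are untreated cells at 0 h and DMSO, red triangles tunicamycin, and lines only join means. HSP90B1, CALR and PDIA3 had higher means at 24 h than at 4 h of tunicamycin, HSPA5, DDIT3, CHAC1, TRIB3 and STC2 lower, and the sterol genes of the third row were highest upon DMSO at 24 h.

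The DMSO level at 24 h was also the highest for 3 glycolysis and hypoxia-inducible genes, the members of 35 that fell, with a list median of -0.28 and 0 rises by any of the 3 tools (4 higher at an unadjusted p under 0.05). ALDOC, an aldolase, stood at 329.5, 296 and 311 CPM upon DMSO and 116, 94.9 and 104 CPM upon tunicamycin (-1.57 ± 0.09 SE) against 41.1 ± 5.21 CPM (SD, n = 3) upon DMSO at 4 h. ENO2 (-1.59) and the mitophagy receptor BNIP3 (-1.24) were the others, and both were likewise higher upon DMSO at 24 h (35.5 and 165 CPM) than at 4 h (3.26 and 36.6 CPM). Upon tunicamycin at 24 h ALDOC, ENO2 and BNIP3 averaged 105, 11.8 and 69.9 CPM, above their levels in untreated cells (36, 3.02 and 36 CPM).

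Genes of cell division were lower in large number and by small amounts. Of 42 mitosis genes 38 were lower past adjusted p and 0 higher, also at an unadjusted p under 0.05, with a median of -0.73, and 5 fell: the securin PTTG1 (-1.33), the kinase PLK1, CDC20 (-1.25), KIF20A (-1.17) and CCNB1 (-1.05). PLK1 stood at 232, 232 and 219.8 CPM upon DMSO and 102, 95.9 and 87.7 CPM upon tunicamycin (-1.26 ± 0.07 SE). Of 47 DNA replication genes 33 were lower past adjusted p, with a median of -0.28 and no call by edgeR, limma voom or DESeq2. Among them the origin factor ORC1 was at -0.62 ± 0.08 SE. Of 15 tubulins 7 fell, with a median of -0.998. TUBB4A, 1 of the 7, was not called without tunicamycin replicate 3 (-0.93), DMSO replicate 1 (-0.969) or TMM (-0.989). TUBA1B stood at 2756, 2902 and 2865 CPM upon DMSO and 1278, 1333 and 1093 CPM upon tunicamycin (-1.20 ± 0.08 SE), and TUBA1A (-1.58) and TUBA4A (-1.69) fell further. Alpha tubulins are near-identical copies among which reads can be split, and TUBA1B overlaps its antisense gene TUBA1B-AS1, which fell too (-1.16). Whether counting used the strand is not given in the sources used here, so that the reads of this pair cannot be told apart. TUBE1 was the single tubulin that rose (1.21).

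Of 74 nuclear genes of the respiratory chain 68 were lower past adjusted p and 0 higher, also at an unadjusted p under 0.05, with a median of -0.53. The 2 called, NDUFS6 and ATP5MF, were at -0.968 and -0.999 without tunicamycin replicate 3 and then not called. The 13 genes of the mitochondrial genome had log2 fold changes of -0.06 to 0.32 and 0 passed even an unadjusted p under 0.05, or were called by limma voom or DESeq2. The share of counts on mitochondrial genes, given above, was highest in tunicamycin replicate 3, and its part in this was not tested. Of 36 proteasome genes 33 were lower (median -0.52) and of 51 MYC and ribosome biogenesis genes 39 (median -0.38), past adjusted p and without a call by any of the 3 tools. The proteasome subunit PSMB6 stood at 96.1, 102 and 108 CPM upon DMSO and 56.5, 62.6 and 40.8 CPM upon tunicamycin (-0.94 ± 0.12 SE), and the ribosome assembly factor TCOF1 at 150.2, 152 and 135 CPM upon DMSO and 92.2, 81 and 70.0 CPM upon tunicamycin (-0.85 ± 0.08 SE). The groups did not overlap for either gene. Of 79 cytosolic ribosomal protein genes 17 were lower past adjusted p, a share under the 25.1% of all genes by the same rule. The list's median was -0.18 with 28 lower at an unadjusted p under 0.05, again without a call by any of the 3 tools. Cytosolic heat shock genes, the chaperones outside the ER, were lower past adjusted p in 23 of 27 cases (median -0.54). The Hsp90 cochaperone FKBP4, at 304, 332 and 281 CPM upon DMSO and 124, 117 and 106 CPM upon tunicamycin (-1.40 ± 0.07 SE), HSPE1 (-1.22) and HSPB1 (-1.18) fell.

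The largest fall among genes with a symbol, non-overlapping libraries and at least 5 CPM in the higher group was that of ID3 (chr1:23557926-23559501), an inhibitor of basic helix-loop-helix factors. ID3 stood at 18.4, 16.2 and 20.6 CPM upon DMSO and 0.637, 0.224 and 0.278 CPM upon tunicamycin, a log2 fold change of -5.59 ± 0.24 SE with an adjusted p of 1.8e-14. Its paralog ID1 stood at 43.8, 33 and 48.2 CPM upon DMSO and 2.55, 2.02 and 1.33 CPM upon tunicamycin (-4.43 ± 0.17 SE, adjusted p 3e-15). Upon tunicamycin ID3 was close to the level of 3 counts, and both genes were far above it upon DMSO. At 4 h ID3 averaged 12.5 ± 1.36 CPM (SD, n = 3) upon tunicamycin and 8 ± 1.95 CPM upon DMSO, and ID1 22.5 ± 1.34 and 36.1 ± 1.88 CPM. Next in size came IFI27 (-3.57), IFITM1 (-3.39), PRTN3 (-2.76), the sodium chloride cotransporter SLC12A3 (-2.73), STARD8 (-2.64), DDN (-2.50), the calcium channel subunit CACNA2D3 (-2.40), S100A9 (-2.29), the haematopoietic factor GATA2 (-2.26) and CERNA2 (-2.25).

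Of 39 interferon-stimulated genes 7 fell and 0 rose by any of the 3 tools (9 higher at an unadjusted p under 0.05), with a median of -0.08. ISG15, a ubiquitin-like modifier, stood at 33.9, 41.6 and 44.9 CPM upon DMSO and 15.4, 15 and 11.1 CPM upon tunicamycin (-1.55 ± 0.15 SE). IFI27 stood at 5.77, 6.32 and 6.20 CPM upon DMSO and 0.779, 0.448 and 0.334 CPM upon tunicamycin, and IFI44 (-1.54), IFI44L (-1.47), IFIT1 (-1.38), MX1 (-1.36) and IFI6 (-1.06) were the others. A further 7 members were higher past adjusted p. Without tunicamycin replicate 3, 6 members were called lower, as IFI6 was at -0.969.

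Genes of myeloid identity went both ways. Of 36, 3 rose and 4 fell, with a median of 0.06. The serine protease PRTN3, made by granulocyte precursors, stood at 154, 164 and 147 CPM upon DMSO and 27.9, 23.1 and 18.2 CPM upon tunicamycin (-2.76 ± 0.12 SE, adjusted p 2e-14). Its neighbours on chromosome 19, ELANE and AZU1, which encode proteins of the same granules, had other values. ELANE stood at 451, 505 and 489.6 CPM upon DMSO and 265, 251 and 189 CPM upon tunicamycin (-1.04 ± 0.10 SE), was at -0.94 without tunicamycin replicate 3 and then not called, and AZU1 stood at 234, 267 and 279.9 CPM upon DMSO and 351, 318 and 282 CPM upon tunicamycin (0.28 ± 0.09 SE). The calprotectin genes S100A8 (-1.40) and S100A9 fell. The monocyte receptor CD14 stood at 4.57, 3.06 and 4.08 CPM upon DMSO and 13.2, 13.4 and 13.8 CPM upon tunicamycin (1.78 ± 0.22 SE) and the receptor kinase FLT3 at 99, 83.3 and 99.7 CPM upon DMSO and 204, 204 and 229 CPM upon tunicamycin (1.18 ± 0.08 SE). The third rise, PRSS57, was at 1.03, close to 1 CPM, and was not called by limma voom or DESeq2.

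Of 28 NF-kappaB and inflammatory genes 3 rose, the chemokines CCL2, at 3.80, 3.13 and 4.99 CPM upon DMSO and 15.9, 16.9 and 16.4 CPM upon tunicamycin (2.05 ± 0.18 SE), and CCL3 (1.31), and IER3 (1.91), while the inhibitor NFKBIE fell (-1.43). Of 28 immediate early genes and MAPK phosphatases 2 fell, DUSP2 (-1.10) and FOSL1 (-1.10). Of 27 p53 targets 1 rose, SESN2, which is also an ATF4 target, and CDKN1A was at -0.57. Of 27 glutathione and NRF2 genes 2 rose, SLC7A11 and CHAC1, which the lists above hold too. Of 18 snoRNA host genes 2 rose, SNHG32 (1.24) and ZFAS1 (1.21). The 19 HOX genes and MEIS1, the 23 SR protein and kinase genes and the 11 targets of IRE1-dependent decay had no call by edgeR, limma voom or DESeq2, with 8, 7 and 2 higher and 1, 7 and 2 lower at an unadjusted p under 0.05. The HOX gene HOXB9 was at 0.73 ± 0.12 SE, the kinase CLK4, which phosphorylates SR proteins, at 0.59 ± 0.20 SE, and the decay target BLOC1S1 at -0.60 ± 0.14 SE. The splicing factor SRSF1 stood at 334, 337 and 376 CPM upon DMSO and 347, 352 and 397 CPM upon tunicamycin, overlapping groups with an adjusted p of 0.41.

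The largest rises by the rule used for ID3 were those of GEM, a small GTPase, DDIT3, IGFBP3, DERL3, CDH15, IL32, STOX2, SLC7A11, CHAC1, HSPA5, MANF and NIBAN1. GEM stood at 0.493, 0.261 and 0.605 CPM upon DMSO and 9.63, 9.41 and 12.8 CPM upon tunicamycin (4.56 ± 0.28 SE). IGFBP3, a carrier of insulin-like growth factors, stood at 1.55, 0.587 and 1.29 CPM upon DMSO and 25.5, 22.6 and 19.4 CPM upon tunicamycin (4.31 ± 0.22 SE). The cytokine IL32 stood at 0.352, 0.521 and 0.378 CPM upon DMSO and 7.01, 7.32 and 6.39 CPM upon tunicamycin (4.01 ± 0.38 SE). All 3 were below 2 CPM in each DMSO library. GEM and IL32 passed the filter only through the tunicamycin libraries, so that their groups could not overlap. NIBAN1, a stress-induced regulator of translation, stood at 5.70, 5.54 and 5.29 CPM upon DMSO and 55.8, 55 and 55.4 CPM upon tunicamycin (3.33 ± 0.11 SE). The cadherin CDH15 (4.04) and the transporter SLC22A31 (2.94) are convergent neighbours on chromosome 16 whose annotated ends lie next to each other, and both were called higher. Of 1407 lncRNA genes tested 113 rose and 25 fell (8.03% and 1.78%), against 506 and 231 of 11861 protein-coding genes (4.27% and 1.95%). These shares include genes that passed the filter only through the tunicamycin libraries, 134 among all genes tested, of which 112 were called higher. How many of them are lncRNA genes is not given, so the difference in rises may partly reflect the filter.

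To ask whether the response at 24 h differed from that at 4 h, the interaction of treatment and time was tested, the log2 fold change at 24 h minus that at 4 h. It passed adjusted p for 4907 genes, 35.5%, of which 2354 were positive (17% of genes tested) and 2553 negative (18.5%). The 24 h fold changes enter both this value and the calls. Of the 26 ER chaperones 13 had a positive and 2 a negative interaction, with medians of 0.68 at 4 h and 1.37 at 24 h. HSP90B1 averaged 2412 ± 84.2 CPM (SD, n = 3) at 4 h and 5186 ± 214 CPM at 24 h of tunicamycin, with log2 fold changes of 1.71 and 3.23 over the DMSO cells of each time and an interaction of 1.52 ± 0.09 SE, adjusted p 2e-11. CALR (1.33 ± 0.10 SE) and PDIA3 (1.45 ± 0.08 SE) also had positive interactions, and HSPA5 differed less between the times (4 h log2 fold change 3.30, interaction 0.27 ± 0.08 SE, adjusted p 0.012). Its level was 6833 ± 133 CPM at 4 h and 4957 ± 126 CPM at 24 h of tunicamycin, and 694 and 418 CPM upon DMSO.

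The ATF4 and CHOP list went the opposite way. Of its 25 members 17 had a negative and 2 a positive interaction, and its median was 2.15 at 4 h and 0.87 at 24 h. DDIT3 averaged 452 ± 22.3 CPM (SD, n = 3) at 4 h of tunicamycin and 221 ± 28.9 CPM at 24 h, an interaction of -0.999 ± 0.16 SE. TRIB3 averaged 654 ± 21.9 and 173 ± 13.6 CPM (-2.62 ± 0.11 SE, adjusted p 7.2e-14) and STC2 117 ± 5.23 and 55.5 ± 4.16 CPM (-4.05 ± 0.24 SE, adjusted p 2.6e-11). STC2 upon DMSO was at 1.16 CPM at 4 h and 9.26 CPM at 24 h. ATF3 and PPP1R15A, at 3.67 and 2.40 at 4 h, were at 0.60 and 0.37 at 24 h. No difference between the times was detected for ATF4 (interaction -0.08 ± 0.12 SE, adjusted p 0.65), and the members with a positive interaction were ATF5 (0.96 ± 0.14 SE) and XPOT (0.29 ± 0.10 SE). Among the 22 amino acid enzymes 11 had a negative and 2 a positive interaction, with medians of 0.92 at 4 h and 0.65 at 24 h. The positive ones were ASS1 (1.18 ± 0.13 SE) and ALDH1L2 (0.35 ± 0.12 SE).

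The sterol genes stood otherwise at 4 h. Of the 28 cholesterol genes 23 had a negative and 1 a positive interaction, with a median of 0.20 at 4 h. DHCR7 was at 0.36 at 4 h and -1.53 at 24 h (-1.89 ± 0.13 SE, adjusted p 5.4e-10) and MVK at 0.41 and -1.86 (-2.28 ± 0.15 SE, adjusted p 1.9e-10). Part of each interaction is the change between the DMSO groups given above. Of the other lists, 24 of 42 mitosis genes, 26 of 36 proteasome genes, 30 of 74 respiratory chain genes and 19 of 39 interferon-stimulated genes had a negative interaction and 0 a positive one.

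**Figure D5:**
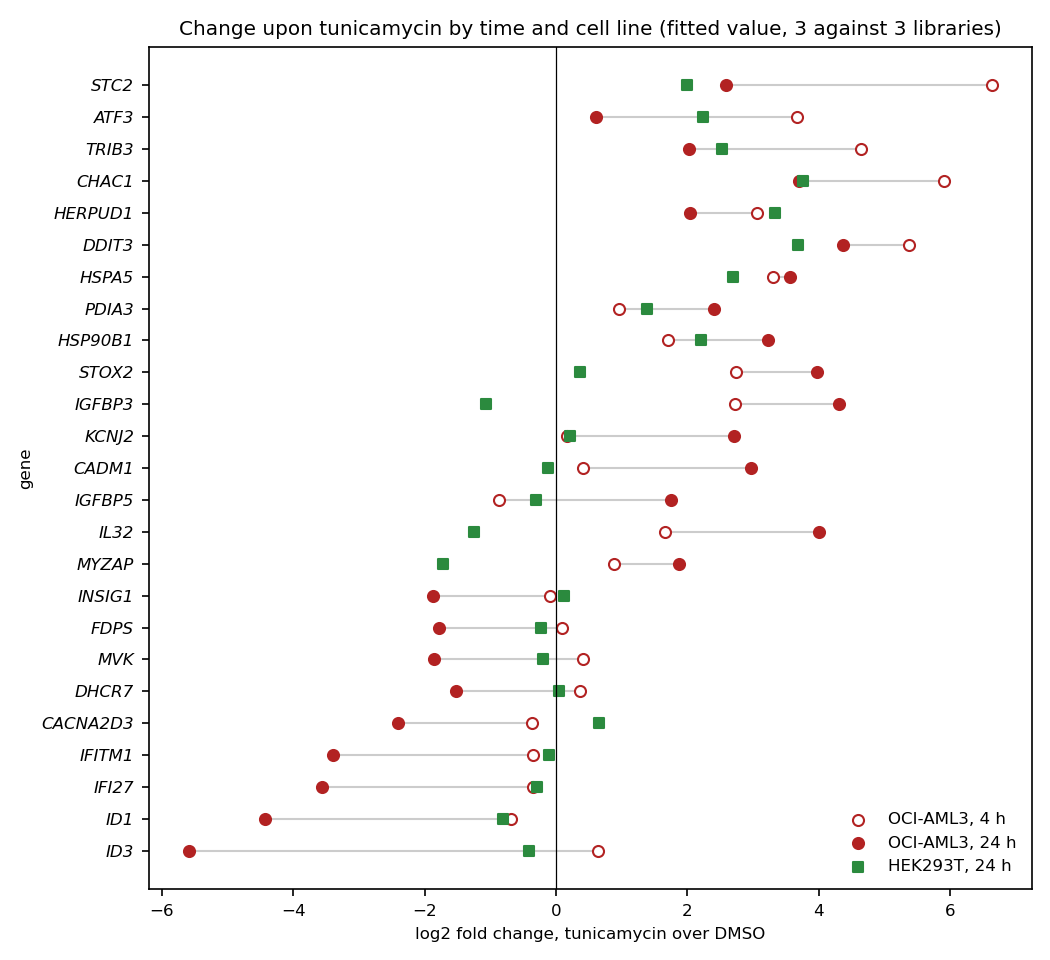
Fitted log2 fold change, tunicamycin over DMSO (x axis), of 25 genes (rows) in OCI-AML3 cells at 4 h (open circles) and 24 h (filled circles) and in HEK293T cells at 24 h (squares), each from 3 against 3 libraries. The grey line joins both times of OCI-AML3. CHOP pathway genes such as STC2 lie further right at 4 h, HSP90B1 and PDIA3 further right at 24 h, and ID1 and ID3 far left at 24 h in OCI-AML3 alone among the 3 comparisons.

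The response was also compared with that of HEK293T cells at the same time and dose. The interaction, the log2 fold change in HEK293T minus that in OCI-AML3, passed adjusted p for 3598 genes, 26.0%, 1832 positive (13.3%) and 1766 negative (12.8%). Of the 26 ER chaperones 12 had a negative and 4 a positive interaction, with medians of 1.28 in HEK293T and 1.37 in OCI-AML3. HSPA5 averaged 489.7 CPM upon DMSO and 3183 CPM upon tunicamycin in HEK293T, a smaller change than the log2 fold change of 3.57 in OCI-AML3 (interaction -0.87 ± 0.08 SE, adjusted p 5.4e-08), and CRELD2 at 1.64 and 3.31 (-1.67 ± 0.12 SE). HERPUD1 differed the other way, at 3.33 and 2.04 (1.299 ± 0.10 SE, adjusted p 2.3e-09). For XBP1, EIF2AK3 and CHAC1 no difference between the lines was detected (interactions -0.20 ± 0.11 SE, -0.20 ± 0.12 SE and 0.07 ± 0.24 SE, adjusted p 0.2, 0.24 and 0.88).

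The sterol list had a median of 0.04 in HEK293T and -0.99 in OCI-AML3, with 22 of 28 members positive and 0 negative in the interaction. INSIG1 was at 0.13 and -1.88 (2.001 ± 0.12 SE, adjusted p 8.6e-11). FDPS was at -0.23 and -1.78 (1.55 ± 0.11 SE, adjusted p 1.3e-09). The lines were grown in different media, RPMI for OCI-AML3 and DMEM for HEK293T, so that line and medium cannot be told apart. In OCI-AML3, INSIG1 averaged 151 CPM upon DMSO at 4 h, 666 CPM upon DMSO at 24 h and 181 CPM upon tunicamycin at 24 h. Such a rise between the DMSO groups enters the interaction, and HEK293T cells have no earlier group here to set beside it. Mitosis genes were positive in 27 of 42 cases and respiratory chain genes in 36 of 74, with 0 negative, and the medians of both lists in HEK293T were -0.21 and -0.14. BMF was at -0.02 in HEK293T (interaction -1.78 ± 0.17 SE, adjusted p 8.6e-08), and PMAIP1 at 0.62 (interaction -1.04 ± 0.12 SE, adjusted p 1.2e-06).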

How the data were processed

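RNA of 21 libraries from 2 human cell lines was sequenced after poly-A selection as paired-end reads. From reads trimmed by seqtk and placed on GRCh38 by STAR, the authors deposited RSEM expected counts per gene of an Ensembl annotation, neither scaled nor filtered. RSEM splits reads that fit several genes, and whether counting used the strand is not given in the sources used here. Expected counts were rounded. Genes with at least 1 CPM in 3 of the 6 compared libraries were kept (13823 of 60671). edgeR 4.0.16 (R 4.3.3) was run with TMM scaling and the quasi-likelihood test on all 21 libraries with 7 groups, and p was adjusted by Benjamini-Hochberg over all genes tested. Interactions were called at adjusted p of at most 0.05. CPM used TMM-scaled library sizes, and SE is the log2 fold change over the square root of F.

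limma 3.58.1 (voom), DESeq2 1.42.0, other scalings and filters, the 6 libraries alone, a replicate block and leaving out each library were tried. Members and gene lists were chosen with earlier results of these data known. Genes named are the 12 largest rises and falls (no overlap, mean of at least 5 CPM in the higher group), the 6 largest gains and losses in CPM, up to 4 called members per list and direction (in lists without a call up to 2 others), UPR effectors and DPAGT1, and the 5 largest interactions each way. Further members are named by role. Positions are from GENCODE 44. Promoters came from RefSeq GRCh38.p14 and matched 73.8% of genes by symbol or ID. A few genes are not reported here.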

Additional observations from a re-analysis of the deposited data

Results flagged for a closer look

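Results are listed here because the change upon tunicamycin differed between times or between cell lines by the interaction test of the model, and no explanation was weighed. In OCI-AML3 cells the response at 24 h differed from that at 4 h past adjusted p for 4907 genes, and the responses of both lines at 24 h differed for 3598. The genes named are those called at 24 h with the largest interactions in either direction. All interaction values are log2.

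Against 4 h the response at 24 h was more negative for ID3 (-6.23 ± 0.29 SE), STC2 (-4.05), ID1 (-3.75), IFI27 (-3.21) and IFITM1 (-3.03), edgeR adjusted p at most 1.9e-05. IFITM1 stood at 7.74, 9.91 and 11.6 CPM upon DMSO and 0.425, 1.34 and 1 CPM upon tunicamycin at 24 h and averaged 8.60 CPM upon DMSO and 6.69 CPM upon tunicamycin at 4 h. The response at 24 h was more positive for IGFBP5 (2.62), CADM1 (2.56), KCNJ2 (2.54), IL32 (2.35, adjusted p 0.018) and SLC22A31 (2.33). IL32 was at 2.19 without DMSO replicate 1 at 4 h and 2.30 without DMSO replicate 3 at 4 h, past adjusted p in neither. CADM1, a cell adhesion molecule, stood at 1.97, 1.304 and 2.04 CPM upon DMSO and 12.2, 14.8 and 14.4 CPM upon tunicamycin at 24 h, with non-overlapping groups, and at 4 h averaged 1.58 CPM upon DMSO and 2.10 CPM upon tunicamycin. KCNJ2, a potassium channel, stood at 2.67, 2.61 and 2.27 CPM upon DMSO and 15.1, 13.8 and 20.4 CPM upon tunicamycin, against 2.24 and 2.54 CPM at 4 h.

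Against OCI-AML3 the response of HEK293T cells was more negative for the unnamed gene ENSG00000279117 (-10.51), IGFBP3 (-5.38), IL32 (-5.25), STOX2 (-3.60) and MYZAP (-3.60). It was more positive for ID3 (5.18), ID1 (3.62), IFI27 (3.28), IFITM1 (3.28) and CACNA2D3 (3.05), and the adjusted p of these 10 genes was at most 0.0029. In HEK293T cells ID3 averaged 79.9 CPM upon DMSO and 60.1 CPM upon tunicamycin, and ID1 9.94 and 5.68 CPM. ENSG00000279117, IGFBP3, IL32 and MYZAP averaged under 1 CPM in HEK293T cells in both groups, IGFBP3 at 0.172 CPM upon DMSO and 0.0821 CPM upon tunicamycin, where 3 counts correspond to 0.141 to 0.207 CPM.

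ENSG00000279117 (chr11:75260129-75262466, minus strand, GRCh38) lies within ARRB1 on the same strand. It had no count in any DMSO library at 24 h, nor in the untreated and 4 h libraries, and 10.6, 6.94 and 7.72 CPM upon tunicamycin at 24 h, at least 39.8-fold higher against a floor of 3 counts per library. The fitted values depend on the prior count and are no bounds, and the interaction with cell line did not pass adjusted p under DESeq2 (-9.62) or without HEK293T DMSO replicate 3 (-4.81). ARRB1 stood at 283, 283 and 247 CPM upon DMSO and 229.5, 227 and 208 CPM upon tunicamycin, and reads of the overlapping pair cannot be told apart by position alone.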

How the results depend on the processing

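The count of genes called was within 1.5 times of 928 under limma voom (933), DESeq2 (914), other scalings, both other filters and the 6 libraries alone, and no call of a named gene changed direction, while the median log2 fold change of all genes, 0.038, lay between -0.019 and 0.076 over the alternatives. The exceptions were 447 genes called lower with no filter beyond 1 count, and 7225 genes, 3755 higher and 3470 lower, at adjusted p with no fold threshold. Leaving out a library gave 811 to 1046 genes called, 546 to 683 higher and 265 to 363 lower, with 811 without tunicamycin replicate 3 and 1046 without tunicamycin replicate 2. The percentage of calls that were higher was 71.4, and 64.1 to 75.5 over the alternatives with a fold threshold. It was lowest, 64.1, without tunicamycin replicate 1, 64.2 with a filter of 1 CPM in 8 of 21 libraries and 75.5 without TMM. Same-numbered libraries had deviations that correlated at -0.014, -0.114 and -0.158 and were not taken as pairs, and the fit with the replicate block called 915 genes, 911 of them among the 928.

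Of all 928 genes called, 634 kept their call under each alternative with a fold threshold that tested them. The other 294 lost it in at least 1. Among the 164 called genes that are list members or named, 147 kept it throughout and 17 lost it in at least 1. GARS1 fell below the fold threshold in 9 (0.945 to 0.989) and PRSS57 lost its call in 7. CLK4 lost its adjusted p in 4 leave-outs (0.453 to 0.536), among them the one without tunicamycin replicate 3 (0.482). SCARA3 passed adjusted p only under limma voom and without tunicamycin replicate 1. ENSG00000279117 was not called by DESeq2, and its interaction with cell line was lost there and without HEK293T DMSO replicate 3. SELENOS lost its call in 5, XPOT in 4, PSPH and TUBB4A in 3 and ABCA1 in 2, while IDI1 lost it without TMM (-0.989), SLC1A4 without tunicamycin replicate 1 and SMPDL3A without DMSO replicate 2. Without tunicamycin replicate 3, calls were lost for TMED5, ELANE, NDUFS6, ATP5MF, MVD, IFI6, XPOT, TUBB4A, ABCA1 and GARS1. The nuclear respiratory chain list had 2 called lower, 0 without that library, 7 without tunicamycin replicate 2 and 4 without DMSO replicate 1. The proteasome list had 0 called lower, 1 under both other filters, and 1 or 2 without either of DMSO replicates 1 and 2 or tunicamycin replicates 1 and 2. The ER to Golgi list had 2 called higher and 4 without TMM. The glycolysis list had 3 called lower and 5 without tunicamycin replicate 1, and the inflammatory list 1 and 2 without tunicamycin replicate 2. The ribosome biogenesis, ribosomal protein, HOX, amino acid transporter (lower) and IRE1 decay lists, with 0, had 1 in single leave-outs. The interaction of IL32 with time was 2.19 without DMSO replicate 1 at 4 h and 2.30 without replicate 3, past the threshold in neither. The causes were not tested.

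With 3 libraries a group and 14582963 to 18341518 counts a library, genes near 1 CPM rest on few counts. The design holds 1 dose and, for these cells, a single late time.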

Other observations

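The genes below were chosen after their values were seen, and their values are given without explanation. The cholesterol efflux pump ABCA1 stood at 17.3, 17.7 and 13.2 CPM upon DMSO and 33.6, 27.6 and 40.1 CPM upon tunicamycin, and its groups did not overlap (1.07 ± 0.17 SE, edgeR adjusted p 1.7e-05), but it was at 0.924 without DMSO replicate 3 and 0.885 without tunicamycin replicate 3 and then not called. ABCG1, a related transporter, stood at 0.422, 0.717 and 0.529 CPM upon DMSO and 2.05, 2.39 and 1.67 CPM upon tunicamycin and passed the filter only through the tunicamycin libraries, so that it had to differ. SMPDL3A was at 1.09 ± 0.24 SE, and at 0.922 and not called without DMSO replicate 2. Other genes known as targets of the sterol-sensing LXR receptors, MYLIP and LPCAT3, had log2 fold changes of -0.08 and 0.11 with adjusted p of 0.46 and 0.32. At 4 h ABCA1 averaged 10.1 CPM upon DMSO and 9.48 CPM upon tunicamycin, and the difference between the times passed the interaction test (1.18 ± 0.25 SE, adjusted p 0.001).

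ID1 and ID3 are known as targets of BMP signalling. The BMP pathway inhibitor SMAD6 stood at 18, 17.6 and 17.7 CPM upon DMSO and 6.66, 7.02 and 4.50 CPM upon tunicamycin (-1.57 ± 0.13 SE, adjusted p 1.2e-09) and fell with them. ID2 stood at 53.9, 48.6 and 60.2 CPM upon DMSO and 44.7, 46.6 and 44.9 CPM upon tunicamycin, with non-overlapping groups and a log2 fold change of -0.26 that was not called. The pseudoreceptor BAMBI was at 0.71 ± 0.11 SE, higher past adjusted p and not called.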
